A study of Mus musculus with 8 samples.

Results

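The sterol and fatty acid synthesis genes are 35 mouse genes, named by function, that make cholesterol and long-chain fatty acids or control those pathways. They were read from expression arrays through the probe set whose annotation carries the gene's symbol alone, taking the brightest where a gene had several. Of the 35, 33 were measured this way, among 19938 genes measured in the series: 17 of 18 sterol synthesis enzymes, 5 of 5 genes of sterol sensing and transport, and 11 of 12 fatty acid genes. Acat2 and Acsl3 had no probe set of their own in the annotation and were not analysed here. The cells were cultures of MLL-AF9 leukaemia cells, grown from c-Kit-positive bone marrow of mice with floxed Runx1 and Cbfb. Every culture, controls included, carried both floxed genes, the MLL-AF9 fusion and CreERT2 (a Cre recombinase that 4-hydroxytamoxifen, 4OHT, switches on, delivered with puromycin resistance), and grew in cytokine-enriched M3434 methylcellulose. Control cultures, labelled Runx1/Cbfb-intact, received ethanol, and Runx1Cbfb-KO cultures received 1 µM 4OHT, for 24 h in both cases. The 8 arrays held 2 clones with 2 biological replicates per clone and treatment. Ethanol and 4OHT cultures that share clone and replicate number form a set, which gives 4 sets. No culture had 4OHT without the floxed genes, so 4OHT, active Cre and deletion cannot be told apart. The labels give no strain, age or promoter, and 2 clones limit what can be said of other clones.

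Cholesterol is built from acetyl-CoA through mevalonate, isoprenoid units and squalene, and the last steps trim and desaturate the sterol ring. Fatty acids are built from the same acetyl-CoA, then elongated and desaturated. Both pathways are switched on by the SREBP transcription factors, encoded by Srebf1 and Srebf2. The carrier protein Scap takes SREBP from the endoplasmic reticulum to be cut and released, and Insig1 holds Scap back when sterol is plentiful. Many genes of the sterol pathway rise and fall together for this reason, and Insig1 is itself an SREBP target.

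The values are log2 expression levels after RMA normalization, and array medians ran from 6.26 to 6.39, the highest being the treated array of clone 2, replicate 2. A log2 difference of 1 is a 2-fold difference. Levels of different probe sets depend on probe affinity and are not compared between genes. Runx1 signal went against the label: it was 10.05, 10.12, 10.31 and 10.71 in control arrays and 10.58, 10.64, 10.87 and 11.19 in the arrays labelled deleted (clone 1 replicates 1 and 2, then clone 2 replicates 1 and 2). Cbfb was lower by 0.18 ± 0.05 (SE, n = 4 sets) and did not pass (limma adjusted p = 0.128). Whether this probe set lies in the deleted exons was not examined here, so the signal does not settle whether the gene was deleted or whether the labels are right. The 4OHT cultures are therefore written of as labelled deleted, and differences are given in that sense. Of the cell type markers examined, Mpo of myeloid progenitors read 12.93 to 13.18 and Elane 13.27 to 13.36 over the 8 arrays. Kit, Prtn3 and Ctsg of the same list also read above the highest array median in every array. Cd34, the remaining gene of that list, did so in clone 2 only, at 11.11 to 11.57. In clone 1 it read 5.58 to 5.92, below the lowest array median, so the list does not read alike in both clones. The mean of 6 adipocyte and stromal genes ran from 5.74 to 6.09 over the arrays, with none called in any comparison below. That mean joins unlike members. Col1a1 read 7.08 to 7.63, Col3a1 6.62 to 7.34 and Plin1 6.35 to 6.72, all above the lowest array median. Adipoq read 4.43 to 4.77, Fabp4 4.22 to 4.44 and Pdgfra 5.37 to 5.77, all below it. The mean therefore does not show whether such cells were present. In bulk RNA, fewer cells of a type and less RNA per cell cannot be told apart.

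The promoters of Elovl6, Insig1, Fasn and Fads2, which passed a test below, and of Hmgcs1 and Msmo1, whose levels varied widely, are shown as the 250 bases before the gene start, 5′ to 3′ on the gene's own strand, from RefSeq (GRCm38.p6). Capitals mark matches, on either strand, to TCACNCCAC (like the sterol regulatory element), the E-box CACGTG, the box CCAAT and the GC box GGGCGG. Matches to the RUNX forms TGTGGT and TGCGGT are also marked. They lie at chr3:129532136-129532385, plus strand (Elovl6); chr5:28071162-28071411, plus strand (Insig1); chr11:120824548-120824797, minus strand (Fasn); chr19:10101504-10101753, minus strand (Fads2); chr13:119690101-119690350, plus strand (Hmgcs1); and chr8:64733579-64733828, minus strand (Msmo1).
Elovl6: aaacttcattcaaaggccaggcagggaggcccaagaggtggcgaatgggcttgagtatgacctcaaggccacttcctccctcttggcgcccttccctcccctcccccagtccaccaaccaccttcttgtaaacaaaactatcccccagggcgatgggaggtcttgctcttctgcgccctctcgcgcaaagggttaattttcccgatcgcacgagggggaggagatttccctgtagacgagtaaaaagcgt
Insig1: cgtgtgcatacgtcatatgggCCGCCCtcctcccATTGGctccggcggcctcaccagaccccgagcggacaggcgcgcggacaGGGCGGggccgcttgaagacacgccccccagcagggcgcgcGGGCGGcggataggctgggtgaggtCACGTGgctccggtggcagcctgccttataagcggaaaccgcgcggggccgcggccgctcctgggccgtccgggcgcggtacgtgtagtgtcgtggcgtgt
Fasn: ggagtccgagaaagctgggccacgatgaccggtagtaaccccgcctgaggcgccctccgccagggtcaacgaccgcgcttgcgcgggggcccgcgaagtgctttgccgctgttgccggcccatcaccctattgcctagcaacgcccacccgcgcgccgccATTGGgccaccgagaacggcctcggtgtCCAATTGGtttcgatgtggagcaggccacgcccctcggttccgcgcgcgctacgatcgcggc
Fads2: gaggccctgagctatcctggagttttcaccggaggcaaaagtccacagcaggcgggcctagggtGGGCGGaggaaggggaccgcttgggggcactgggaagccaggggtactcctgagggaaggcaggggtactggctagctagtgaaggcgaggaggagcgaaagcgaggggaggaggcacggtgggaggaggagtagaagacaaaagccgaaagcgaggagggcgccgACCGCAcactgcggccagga
Hmgcs1: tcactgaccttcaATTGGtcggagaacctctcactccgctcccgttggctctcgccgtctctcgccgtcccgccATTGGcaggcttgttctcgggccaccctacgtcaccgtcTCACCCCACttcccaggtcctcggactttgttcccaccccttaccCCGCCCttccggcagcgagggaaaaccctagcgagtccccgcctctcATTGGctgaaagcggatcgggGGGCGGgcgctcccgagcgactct
Msmo1: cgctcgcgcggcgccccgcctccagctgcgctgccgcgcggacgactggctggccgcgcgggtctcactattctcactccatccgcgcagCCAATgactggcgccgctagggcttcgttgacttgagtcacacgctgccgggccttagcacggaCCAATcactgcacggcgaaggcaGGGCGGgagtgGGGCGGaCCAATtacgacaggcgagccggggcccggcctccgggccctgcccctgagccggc
The Elovl6 window holds none of the 6 motifs, and in Fasn a CCAAT match overlaps its own reverse complement. Promoters were listed for 28 of the 35 members, 15 of them sterol synthesis enzymes, and not for Fdps, Fdft1, Sqle, Stard4, Fads1, Scd1 and Scd2. CCAAT was found in 14 of these 15 genes, against 33.8% of all 32851 promoters listed and 38.8% of the 15614 measured genes that have one. The GC box was found in 14 of the 15, against 32.7% of all promoters and 49.3% of the measured genes with one. Of the 28, the letters TCACNCCAC were found in Hmgcs1 alone, against 1.05% of all promoters and 1.20% of measured genes. Other forms of the sterol element were not searched for, so the remaining windows may hold them. The E-box was found in 6 member genes, among them Insig1 and Scap, against 6.02% of promoters and 8.11% of measured genes. TGTGGT was found in 4 of 28 member genes (Acaca, Acly, Elovl5 and Lss) against 14.0% of promoters and 2147 of the 15614 measured genes. TGCGGT was found in 4 (Acat2, Elovl5, Fads2 and Pmvk) against 5.10% of promoters and 7.25% of measured genes. A match is a run of letters and says nothing of binding.

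The first comparison asked how levels differ between labelled deleted and control cultures of the same set. Among the 33 members, Elovl6 rose, Fdps fell and 31 did not pass a limma adjusted p of 0.05. Over all genes 0.953% passed, 0.481% higher and 0.471% lower. The member changes were small, with a median of -0.04 against 0.00018 over all genes. At an unadjusted p under 0.05 there were 8 of 33 members, 2 higher and 6 lower, against 6.47% of all genes, of which 643 were higher and 646 lower.

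Elovl6 encodes the elongase that extends palmitate to stearate. Its log2 level in control arrays was 10.645 in clone 1 replicate 1, 10.18 in clone 1 replicate 2, 10.21 in clone 2 replicate 1 and 10.45 in clone 2 replicate 2. After 4OHT it was 10.98, 10.67, 10.640 and 10.68 in the same order. It was higher in 4 of 4 sets, and the groups touch only where the highest control array meets the lowest array labelled deleted. On the log2 scale the fitted rise was 0.37 ± 0.04 (SE, n = 4 sets), or 1.29-fold, with a limma adjusted p of 0.00131 and set differences of 0.34, 0.49, 0.43 and 0.23. Fitted within each clone, the rise was 0.41 ± 0.06 in clone 1 (adjusted p = 0.0115) and 0.33 ± 0.06 in clone 2 (0.0244). Elovl6 was the only member to pass in either clone, where 0.181% of all genes passed in clone 1 and 0.682% in clone 2. Elovl6 no longer passed when sets were not paired (adjusted p = 1), or when the model held clone alone (0.476) or clone plus replicate number (0.181). It also did not pass without the variance trend (0.0977) or with all 35556 probe sets tested (0.203). Calls over all genes fell in these fits too, from 190 in the main fit to 0, 23, 78 and 13 in the order given. With all probe sets tested, 0 of them passed.

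**Figure D1:**
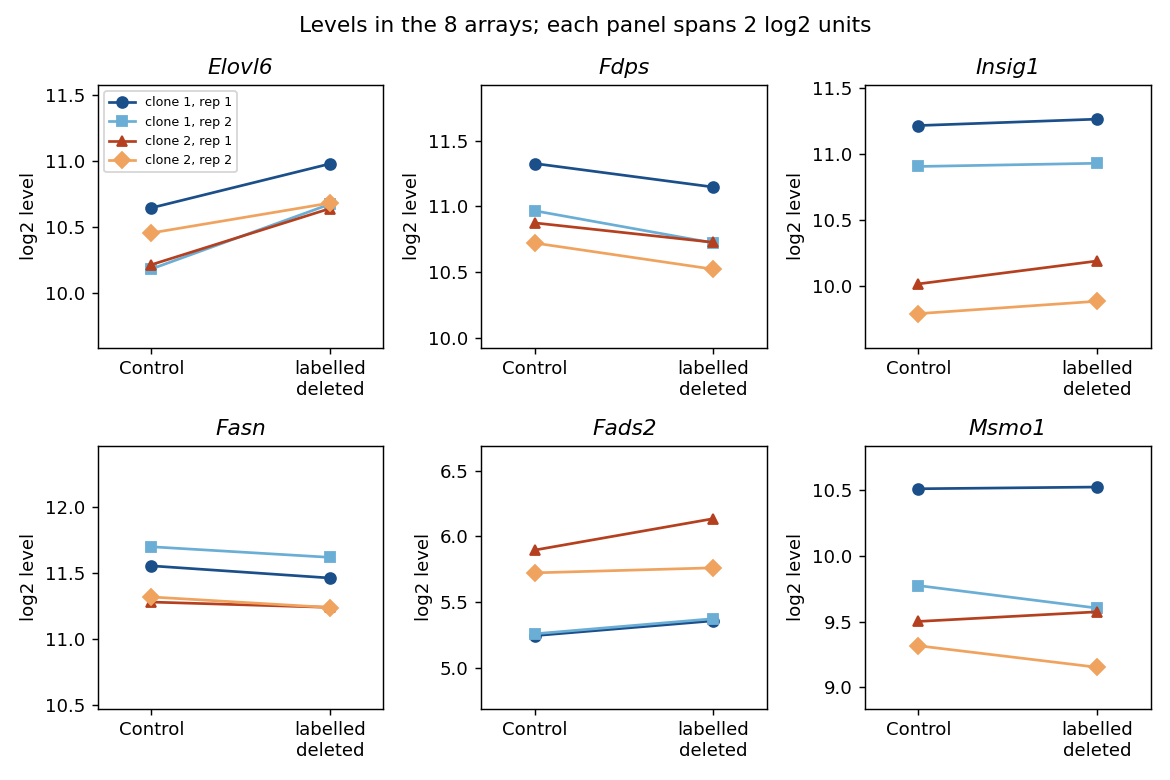
Log2 level of 6 members in the 8 arrays, control on the left and labelled deleted on the right, with a line joining the arrays of each set and every panel spanning 2 log2 units. All 4 Elovl6 lines rise and all 4 Fdps lines fall, while the Insig1, Fasn, Fads2 and Msmo1 lines are spaced by clone or set more than they slope.

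The other fatty acid genes moved little. Of 11 measured, 1 rose, none fell and 10 did not pass, and their median change was -0.0027. Fads2, the delta-6 desaturase, was higher by 0.13 ± 0.08 and Me1, the malic enzyme that supplies NADPH, lower by 0.12 ± 0.07, and neither passed. In control arrays Fads2 was 5.24, 5.26, 5.90 and 5.72, and in the arrays labelled deleted 5.36, 5.37, 6.13 and 5.76. Clone 2 arrays were above clone 1 arrays in each treatment, and all these values lay below the lowest array median of 6.26. Me1 was 7.90, 7.98, 7.97 and 8.15 in control arrays and 7.81, 7.82, 8.001 and 7.87 in those labelled deleted, with overlap. Fasn, the fatty acid synthase, differed by -0.07 ± 0.03 and Elovl5, which elongates polyunsaturated chains, by -0.10 ± 0.03. Both were lower in 4 of 4 sets without passing (adjusted p = 0.552 and 0.365). Acly and Acaca, which make cytosolic acetyl-CoA and malonyl-CoA, stood at 0.01 ± 0.04 and -0.0027 ± 0.05. The stearoyl-CoA desaturases Scd1 and Scd2 stood at 0.05 ± 0.08 and -0.04 ± 0.02, the delta-5 desaturase Fads1 at 0.03 ± 0.04 and the very long chain elongase Elovl1 at -0.02 ± 0.03.

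In the sterol branch, 1 of 17 enzymes fell, none rose and 16 did not pass. Fdps makes farnesyl diphosphate, the precursor of squalene and of prenyl groups. Its level was 11.33, 10.97, 10.87 and 10.72 in control arrays and 11.15, 10.72, 10.73 and 10.52 in those labelled deleted, in the order given for Elovl6. The groups overlap, since sets differ more than treatments, but each set moved down, by 0.18, 0.24, 0.15 and 0.20. The fitted difference was -0.19 ± 0.03 (SE, n = 4 sets; limma adjusted p = 0.0157), a 1.14-fold fall. Fdps no longer passed when sets were not paired (adjusted p = 1), or when the model held clone alone (1) or clone plus replicate number (0.197). It also did not pass without the variance trend (0.342), with median centring (0.443) or with all probe sets (0.234). Nor did it pass without the set of clone 1, replicate 2 (0.198) or over the replicate 1 sets only (0.0633). Calls over all genes were 190 in the main fit and, in these fits in order, 0, 23, 78, 13, 88, 0 (of all probe sets), 98 and 620.

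Mvd and Dhcr7 came next by size of change among the enzymes. Mvd, which makes isopentenyl diphosphate, was 9.73, 9.49, 9.40 and 9.46 in control arrays and 9.53, 9.42, 9.24 and 9.25 in those labelled deleted. Its difference was -0.16 ± 0.05 (adjusted p = 0.253). Dhcr7, which completes the last step to cholesterol, was 10.29, 9.98, 9.87 and 9.90 in control arrays and 10.10, 9.93, 9.73 and 9.67 in those labelled deleted, a difference of -0.15 ± 0.05 (adjusted p = 0.228). Neither passed, and for each the groups overlap. With Fdps and Idi1, the isomerase of isopentenyl diphosphate (-0.10 ± 0.05), they were the 4 of 17 enzymes lower in 4 of 4 sets, against 6.51% of all genes. No enzyme was higher in 4 of 4 sets, against 6.63% of all genes. The remaining 13 ranged from -0.13 for Cyp51, the lanosterol demethylase, to 0.03 for Ebp, the sterol isomerase. The entry enzyme Hmgcs1 (-0.01 ± 0.06), the squalene maker Fdft1 (-0.03 ± 0.05) and the squalene epoxidase Sqle (0.01 ± 0.06) were near 0. The mevalonate and phosphomevalonate kinases Mvk (-0.04 ± 0.06) and Pmvk (-0.06 ± 0.08), the sterol reductase genes Tm7sf2 (0.0017 ± 0.07) and Hsd17b7 (-0.07 ± 0.06), the dehydrogenase Nsdhl (0.01 ± 0.05) and the desaturase Sc5d (-0.08 ± 0.05) also did not pass. The second probe sets of Fdft1, Idi1, Acaca and Me1 gave -0.01, -0.13, 0.05 and -0.15, of the same sign as the probe set used except for Acaca, where both were near 0.

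None of the 5 genes of sterol sensing and transport passed. Scap was 10.16, 10.35, 10.30 and 10.25 in control arrays and 10.04, 10.22, 10.08 and 10.07 in those labelled deleted. It was lower in 4 of 4 sets, by -0.16 ± 0.04 in the fit (adjusted p = 0.102; 0.0326 with array weights), and the groups overlap through 1 array each. Insig1 was 11.22, 10.91, 10.01 and 9.79 in control arrays and 11.27, 10.93, 10.19 and 9.88 in those labelled deleted. Its difference was 0.09 ± 0.04 (adjusted p = 0.755), higher in 4 of 4 sets and much smaller than the gap between the clones. Srebf1 was 9.23, 9.21, 9.22 and 9.24 in control arrays and 9.10, 9.26, 9.17 and 9.20 in those labelled deleted (-0.04 ± 0.05). Srebf2 (-0.04 ± 0.04) and the sterol carrier gene Stard4 (0.03 ± 0.05) also did not pass.

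**Figure D2:**
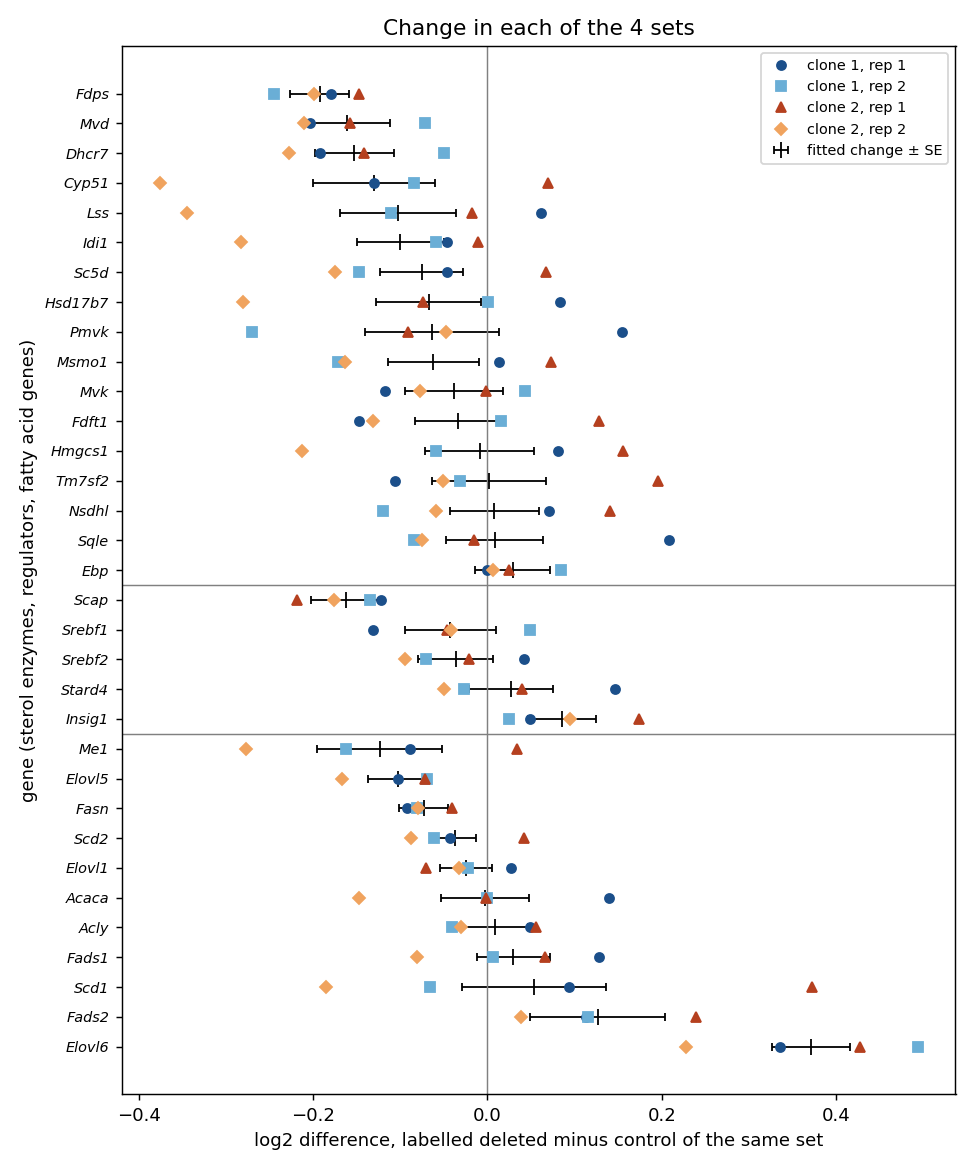
Log2 difference between the labelled deleted and the control array of the same set for each of 33 genes (symbols by set; black bars, fitted change ± moderated SE), ordered by fitted change within the sterol enzymes, the regulators and the fatty acid genes. Elovl6 lies apart at 0.37, Fdps at -0.19, and the clone 2, replicate 2 symbols lie furthest left for Cyp51, Lss, Idi1, Sc5d, Hsd17b7 and Hmgcs1.

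The 4 sets did not show the same shift across the sterol enzymes. Their median difference was -0.05 in clone 1 replicate 1, -0.07 in clone 1 replicate 2, -0.0018 in clone 2 replicate 1 and -0.17 in clone 2 replicate 2, against all-gene medians of 0.00, 0.01, -0.02 and 0.02. In the last set 16 of 17 enzymes were lower, against 9187 of all 19938 genes. Cyp51 was lower by 0.38 there, the oxidosqualene cyclase gene Lss by 0.34 and Hmgcs1 by 0.21. Over the sets of replicate number 1 alone the enzymes' median was 0.01, and over those of replicate number 2 alone -0.14. A fit with an effect per replicate number, added after the data were seen, called no member, while 5 of 17 enzymes differed at an unadjusted p under 0.05, against 18.0% of all genes. The change was lower in replicate 2 than in replicate 1 in both clones for 9 of 17 enzymes, against 31.5% of all genes. The treated array of clone 2 replicate 2 also has the highest array median, and its part in the shift was not tested. No member's change differed between the clones (0 of 33 by limma), against 0.0100% of all genes. At an unadjusted p under 0.05 it was also 0 of 33, against 393 of all 19938 genes.

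Levels of the sterol enzymes differed widely between sets. The range over the 4 control arrays exceeded the size of the fitted change with treatment for 17 of 17 enzymes, as it did for 96.2% of all genes. That range had a median of 0.68 across the 17 enzymes, against 0.21 across all genes and 0.31 across the fatty acid genes. The culture of clone 1, replicate 1 was the highest of the 4 controls for 16 of 17 enzymes, all but Ebp, against 23.1% of all genes. Among the 4 arrays labelled deleted, the same set was again highest for 16 of 17, against 27.8% of all genes. The arrays of a set share clone and replicate number, so the second count is not independent of the first.

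Msmo1, the sterol methyl oxidase, had the widest spread of the enzymes. It was 10.51, 9.77, 9.501 and 9.32 in control arrays and 10.52, 9.60, 9.57 and 9.15 in those labelled deleted. Clone 1 replicate 1 stood apart in each treatment, and the fitted change of -0.06 ± 0.05 is small beside that gap. Hmgcs1 was also highest in clone 1 replicate 1, at 9.80, 9.43, 8.89 and 8.91 in control arrays and 9.88, 9.37, 9.04 and 8.69 in those labelled deleted, but its controls divide first by clone. Across the enzymes, control replicate 1 exceeded control replicate 2 of clone 1 by a median of 0.36, and in clone 2 by 0.06, against -0.0037 and -0.0013 across all genes. Of the fatty acid genes, Scd1 varied most, at 9.46, 7.86, 7.70 and 8.56 in control arrays and 9.56, 7.79, 8.07 and 8.38 in those labelled deleted. Its order over the sets differed from that of most sterol enzymes, since clone 2 replicate 2 came second. Srebf1, Srebf2, Scap and Stard4 ranged by no more than 0.19 over the controls.

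**Figure D3:**
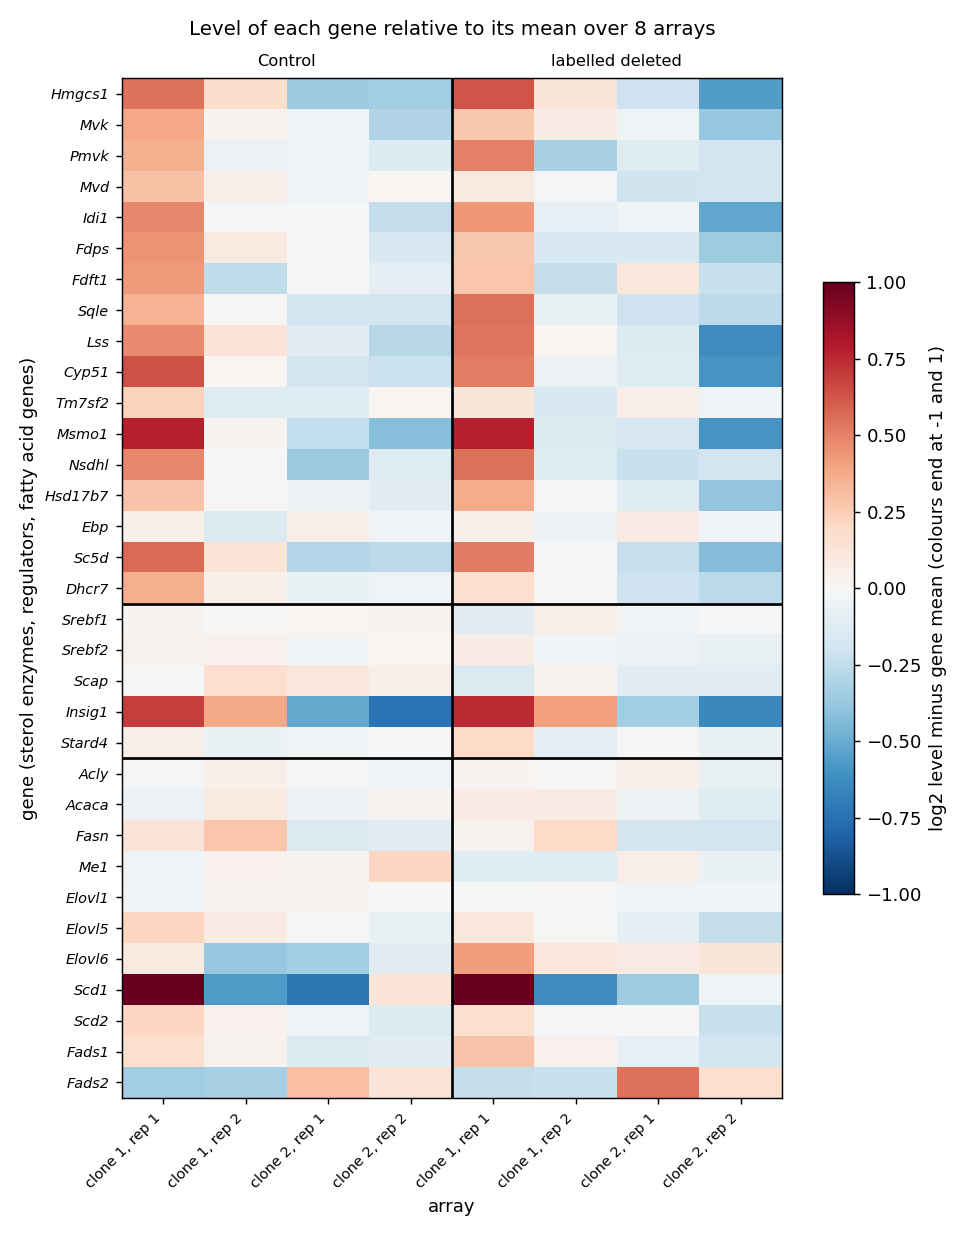
Log2 level of 33 genes in 8 arrays, each relative to the gene's mean over the arrays (rows, genes; columns, arrays; colours end at -1 and 1, which Scd1 exceeds). The clone 1, replicate 1 columns are red for nearly all sterol enzymes in both treatments, Insig1 and Fads2 divide by clone, and Elovl6 is higher on the right in each set.

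The second comparison asked how the clones differ, among control cultures (2 arrays per clone). Of the 33 members, 1 was higher in clone 2 and 2 were lower, against 3.97% of all genes in either direction, 1.60% higher and 2.37% lower. Insig1 was 2.24-fold lower in clone 2 (-1.16 ± 0.15, SE; limma adjusted p = 0.00106), with means of 11.06 in clone 1 and 9.90 in clone 2. Fasn was lower by 0.33 ± 0.07 (adjusted p = 0.0308), from control values of 11.56 and 11.70 in clone 1 and 11.28 and 11.32 in clone 2. Fads2 was 1.47-fold higher in clone 2 (0.56 ± 0.13; limma adjusted p = 0.0463). All its levels lay below the lowest array median of 6.26, and a fit limited to genes above the median level left it out. Both controls of clone 2 were below both of clone 1 for Insig1 and Fasn, as for 20.0% of all genes. They were above for Fads2, as for 32.2% of all genes, so with 2 arrays per clone such separation is common. The Insig1 call held under all 15 alternatives tried. Fasn passed under 7 of 15 and Fads2 under 6 of 14, and neither passed when any 1 control array was left out. Each such fit leaves a clone with 1 control array, which is assumed to vary like the other groups, and the Insig1 count includes these 4 fits.

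In the arrays labelled deleted, which share clone and replicate number with the controls, the clone differences were alike in size. Insig1 was at -1.06 ± 0.15 (adjusted p = 0.00173), Fasn at -0.30 ± 0.07 (0.0373) and Fads2 at 0.58 ± 0.13 (0.0307), and Hmgcs1 passed there too (-0.76 ± 0.18; 0.0366). That makes 1 member higher and 3 lower, against 1.82% and 3.43% of all genes. In these arrays Fasn was 11.46 and 11.62 in clone 1 and 11.24 and 11.24 in clone 2.

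No sterol enzyme passed between the clones among controls, although 16 of 17 were lower in clone 2, against 8018 of all 19938 genes. Their median difference was -0.36, against 0.03 over all genes. Both clone 2 controls lay below both clone 1 controls for 13 of 17 enzymes, against 20.0% of all genes, and none lay wholly above, against 32.2%. The differences of Hmgcs1 (-0.72 ± 0.18; adjusted p = 0.0579), Sc5d, the lathosterol desaturase (-0.63 ± 0.17; 0.0860), and Msmo1 (-0.73 ± 0.29; 0.297) were the widest. Without the clone 1 replicate 1 array the median was -0.17, and without clone 1 replicate 2 it was -0.53. With replicate number as a replicate block, 11 members passed lower in clone 2 rather than 2, among them Hmgcs1, Sc5d, Msmo1, Lss and Fdps, and with set as a random block over both treatments 6 did. Over all genes the calls in either direction also rose in these fits, from 792 to 1330 and to 1687. The regulators other than Insig1 differed by -0.04 (Srebf2) to 0.01 (Scap), and of the fatty acid genes Fads1 (-0.23 ± 0.09), Scd2 (-0.21 ± 0.09) and Elovl5 (-0.19 ± 0.08) were lower without passing.

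The clones also differ in cell type markers. Cd34, a stem and progenitor surface protein, was higher in clone 2 by 5.48 ± 0.17 on the log2 scale, and Adgre1, a macrophage surface marker, differed by -1.23 ± 0.16. Of 5 macrophage genes 1 was lower and 1 higher (Csf1r), of 3 megakaryocyte genes 1 was higher (Gp9), of 6 progenitor genes 1 was higher (Cd34), and none of 4 mast cell, 3 erythroid, 2 B cell, 3 T cell and 6 adipocyte and stromal genes differed by the test. Mean log2 levels of the progenitor list ran from 11.10 to 11.31 in clone 1 and from 12.16 to 12.28 in clone 2, a gap in which Cd34 alone passed, since the other 5 genes differed by -0.08 (Ctsg) to 0.21 (Kit). Those of the macrophage list ran from 6.05 to 6.16 in clone 1 and from 5.95 to 6.13 in clone 2. With treatment, Kit (-0.36 ± 0.05) and Prtn3 (-0.15 ± 0.03) of the progenitor list fell and no other marker passed. The part of any of these in the lipid gene differences was not tested.

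**Figure D4:**
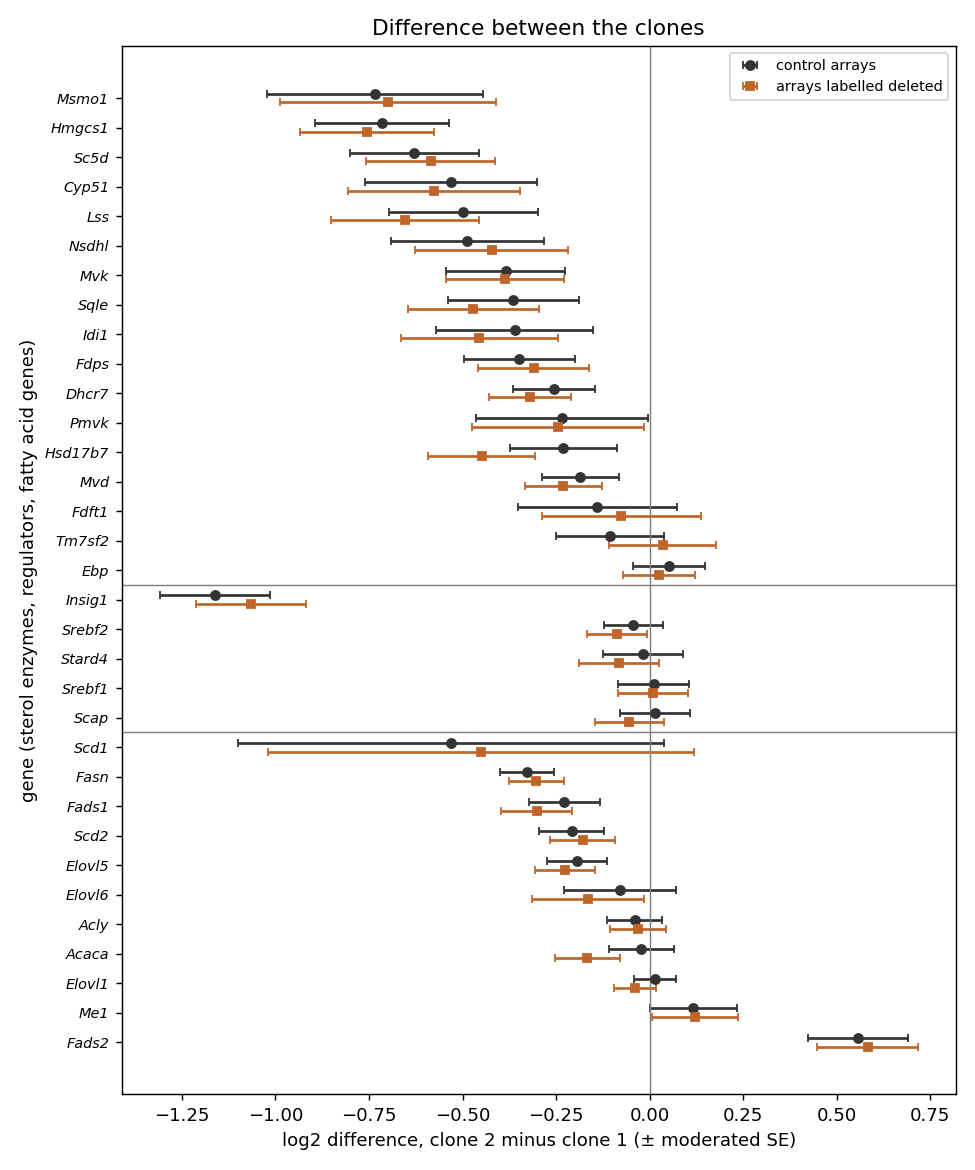
Log2 difference between clone 2 and clone 1 for each of 33 genes, among controls (dark circles) and among arrays labelled deleted (orange squares), with moderated SE. Of the 17 sterol enzymes, 16 lie left of 0 among controls and 15 among arrays labelled deleted, Insig1 lies at -1.16 and -1.06, and Fads2 lies at 0.56 and 0.58.

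Other genes of the pathways were taken from 3 lists chosen for function. With treatment, none of 14 genes of sterol uptake, efflux and control passed. The sterol exporter gene Abcg1 had the smallest p of these (0.23 ± 0.05; adjusted p = 0.0859). None of 28 other genes of fatty acid and glycerolipid synthesis passed either, with Dgat1, an acyltransferase that completes triglycerides, at -0.24 ± 0.06 (0.0664). Nor did any of 21 fatty acid oxidation genes, with Cpt1a, which admits fatty acids to mitochondria, at 0.11 ± 0.04 (0.474). At an unadjusted p under 0.05 these lists held 3 of 14, 6 of 28 and 2 of 21 genes, against 6.47% of all genes. The median changes were 0.02, -0.02 and 0.02.

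Between the clones, each of the 3 lists held called genes in either direction. Npc1, which moves cholesterol out of lysosomes, was lower in clone 2 (-0.67 ± 0.10; limma adjusted p = 0.00341), and the lipoprotein receptor gene Lrp8 was higher (0.39 ± 0.08; 0.0149). The elongase Elovl7 was higher by 1.11 ± 0.12 and the dehydratase Hacd4 by 0.81 ± 0.19, while the acyltransferase Dgat2 was lower (-0.52 ± 0.10). Of the oxidation genes Hadha and Hadhb, the subunits of the mitochondrial trifunctional protein, were lower (-0.36 ± 0.07 and -0.58 ± 0.09), and the enoyl-CoA isomerase Eci1 was higher (0.37 ± 0.09). Called genes were 1 higher and 1 lower of 14, 2 higher and 1 lower of 28, and 1 higher and 2 lower of 21, against 1.60% higher and 2.37% lower of all genes.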

How the data were processed

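Total RNA from 8 cultures (300 ng each) was turned into biotin-labelled whole-transcript cDNA and hybridised to arrays, per the labels' protocols. The deposited values are log2 probe-set levels that the authors made with RMA, per the submitters' processing notes. Its version is not stated in the labels, and that the scale is log2 was inferred from the range of values. Of 35556 probe sets, 21789 had 1 symbol in the platform annotation (1621 several, 12146 not listed), giving 19938 genes.

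Fits used limma 3.58.1 in R 4.3.3 with a variance trend. Tests were two-sided, and p-values were adjusted by Benjamini-Hochberg across the 19938 genes, with 0.05 as threshold. The change had the set as a fixed block, as the series' design text compares 4 sets. Arrays of a set were matched by clone and replicate number in the titles. Their deviations from the mean of their treatment correlated (r from 0.72 to 0.82). Those means span both clones, so r includes clone differences and does not measure what a set shares beyond its clone. Each control array correlated best with the treated array of its own set. The clone difference came from a fit of clone by treatment without a block. Its spread is pooled over all 8 arrays, so a gene's SE is the same among controls and among arrays labelled deleted. Arrays of a set count as independent in that fit. If they vary together beyond their clone, its p-values may be too small. SEs are moderated, so a gene's p-value rests on its own spread between these cultures and on a variance trend over all genes. In the fit of change the trend weighed more, with a median of 9.72 prior against 3 residual degrees of freedom. Scripts were tested on simulated data. Alternatives varied the blocking, variance model, weights, scaling, probe-set choice, filter and sets. The named genes are all members; every array's value is given for those that passed and for the 3 of each branch that changed most. Members, lists and tests were chosen with earlier results of these data known.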

Additional observations from a re-analysis of the deposited data

Results flagged for a closer look

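Among 99 groups of 4 values examined (33 genes, by control levels, labelled deleted levels and set differences), 2 had a value set apart from the other 3 by more than the 95% limit of Dixon's test. Chance flags about 1 in 20 such groups. Nsdhl, a sterol dehydrogenase, stood at 10.40 in the labelled deleted array of clone 1, replicate 1, against 9.63 to 9.73 in the other 3. Elovl6 stood at 10.98 in that array, against 10.64 to 10.68 in the other 3. The same set was highest in control arrays for both genes.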

How the results depend on the processing

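With treatment, the count of members called higher (1, Elovl6) was 1 under every leave-out of a set. It was 0 in fits with no replicate block, clone alone, clone plus replicate number, no variance trend or all probe sets. Total calls fell there too, from 190 to between 0 and 78. The count called lower (1, Fdps) was 0 in the same fits, with median centring and in the sets of replicate number 1 only, 2 with array weights, and ran from 0 to 1 when 1 set was left out. Over replicate number 1 only, the median of sterol enzymes was 0.00997 and of regulators 0.009985, and over replicate number 2 only, that of sterol enzymes was -0.14 and of fatty acid genes -0.0741. Between the clones, the count higher (1, Fads2) was 0 without the trend, with quantile normalization, with median centring and with all probe sets. The fit on genes above the median level did not include Fads2. The count lower (2) was 1 without the trend, with either scaling and with all probe sets, 4 with array weights, 6 with set as a random block and 11 with the replicate block, and 1 when any 1 control array was left out. The clone median of sterol enzymes ran from -0.53 to -0.17 when 1 control was left out, and that of fatty acid genes from -0.256 to -0.05755. The causes were not tested. No called member changed sign under any alternative. Several alternatives cannot move the estimate in this balanced design, such as those without a block or trend, where Fdps stayed at -0.19255. These could not have shown a change of sign. The number of arrays limits the precision.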
